A study of Mus musculus with 6 samples.

Results

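Interferon-stimulated genes are switched on when a cell senses an interferon, and 9 of them are described here in brain endothelial cells, the cells that line brain vessels and form the blood-brain barrier. They were taken by symbol from the deposited table: Stat2, Irf7, Irf9, Isg15, Ifitm3, Bst2, Usp18, Oasl2 and Rtp4, 9 of 23827 listed genes. The series holds 6 libraries of mouse embryos at E14.5 (embryonic day), all of the strain C57BL/6 x 129/Sv and all from mothers given tamoxifen at E12.5. Of these, 3 are wild type and 3 carry the modification R26 Axin1 IresLacZ overexpression, which places extra Axin1 at the Rosa26 locus. Axin1 is a core protein of the destruction complex that keeps beta-catenin low. RNA came from translating ribosome affinity purification (TRAP), in which ribosomes carrying a tag in the cells of interest are captured along with their bound RNA. The sources used here do not give the Cre driver or how many embryos each library pools. The series title ties the comparison to how the Wnt/beta-catenin axis shapes early development of the barrier.

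Type I interferons bind a receptor made of Ifnar1 and Ifnar2, whose kinases Jak1 and Tyk2 phosphorylate STAT proteins, STAT2 among them. STAT2 and IRF9 are parts of the complex ISGF3, which binds the interferon-stimulated response element in the promoters of many antiviral genes. IRF7 then amplifies the response and USP18 shuts it down at the receptor. Many cells keep a low basal level of such genes without infection.

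Values are RPKM, reads scaled to transcript length and to the size of the library. The libraries held 53524184 to 62507510 reads in wild type and 21076922 to 37040176 with Axin1, as recovered from the deposited values. A count of 0 allows up to 3 reads, which for a transcript of 1 kb equals 0.048 to 0.142 RPKM depending on the library, counting error only. Axin1 stood at 13.6, 14.4 and 15.1 RPKM in wild-type replicates 1 to 3 and at 37.8, 38.1 and 37.4 RPKM in Axin1 replicates 1 to 3, so each library matched its label. All 12 endothelial markers were detected, among them Pecam1 at 337 to 410 RPKM and Cdh5 at 348 to 451 RPKM. The column names carry 1 tag for every wild-type library and another for every Axin1 library. Should that tag mark a batch, it and the genotype cannot be told apart. In these bulk libraries, a change in the number of cells of a type and a change in RNA per cell cannot be told apart either.

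The response element is shown first, because it is the sequence that ISGF3 binds at many antiviral genes. The letters GAAANNGAA, the core of the element, were searched on both strands of the 250 bases before each start site in RefSeq's promoter table (build GRCm38.p6, while the study's build was mm9). Windows were found for 7 of the 9 genes, and 3 of these, Isg15, Bst2 and Stat2, held the motif, against 8.18% of 27025 genes with a window. In Isg15 it occurred 3 times and in Bst2 2 times, in runs of overlapping matches. Irf7, Irf9, Ifitm3 and Oasl2 held no match in these letters and this window, and Usp18 and Rtp4 were not matched to the table. A match is a description of the letters and was not shown here to be bound. The 60 bases around the first match are printed 5′ to 3′ on the gene's strand, with matches in capitals. Ifitm2 is added beside Ifitm3 because these neighbouring family members differed in it. Of 45 other interferon-stimulated genes with a window, 19 held the motif, Ifitm2 among them. The 19 include genes called higher below, such as Lgals9, genes tested and not called, such as Cxcl10, and genes too low to be tested, such as Ifit3.
Isg15, chr4:156200862-156200921, minus strand: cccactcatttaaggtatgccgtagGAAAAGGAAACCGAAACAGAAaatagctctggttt
Bst2, chr8:71537568-71537627, minus strand: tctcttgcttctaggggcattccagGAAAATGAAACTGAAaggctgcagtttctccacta
Stat2, chr10:128270252-128270311, plus strand: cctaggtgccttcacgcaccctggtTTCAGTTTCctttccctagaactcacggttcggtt
Ifitm2, chr7:140955973-140956032, minus strand: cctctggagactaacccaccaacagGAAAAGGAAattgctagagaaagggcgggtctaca
The first match began 78 bases before the start in Isg15, 130 in Bst2, 221 in Stat2 and 46 in Ifitm2. In Stat2 the match lies on the opposite strand and is printed as its reverse complement.

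The antiviral effector genes Rtp4, Ifitm3 and Bst2 rose with Axin1 overexpression. Isg15, Oasl2 and the 3 transcription factor genes among the 9 did not pass. Of the 9 genes, 8 averaged 1 RPKM or more over all libraries and so were tested with limma. At an adjusted p under 0.05, 3 of these 8 were higher (Rtp4, Ifitm3 and Bst2) and 0 were lower. Over all 12493 tested genes 14.4% were called higher and 8.37% lower at the adjusted threshold. At an unadjusted p under 0.05 the limma counts were 4, with Isg15, and 0. The share of all tested genes at that unadjusted threshold was not counted, and it cannot be below the adjusted one. The unadjusted counts are therefore not read as a result about these genes. Every Axin1 library lay above every wild-type library for 4 of the 8, beside 28.0% of all tested genes. The median log2 fold change of the 8 genes was 0.33, beside 0.04 over all genes tested. After a correction for GC content and length 2 of the 8 were called higher (7.89% of all genes), and with the median of ratios (10.4%) or voom (16.2%) 3 were. The remaining gene, Usp18, lay below the level filter. None of the 8 passed the filter through the Axin1 libraries alone, since each had a wild-type mean above 1 RPKM.

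**Figure D1:**
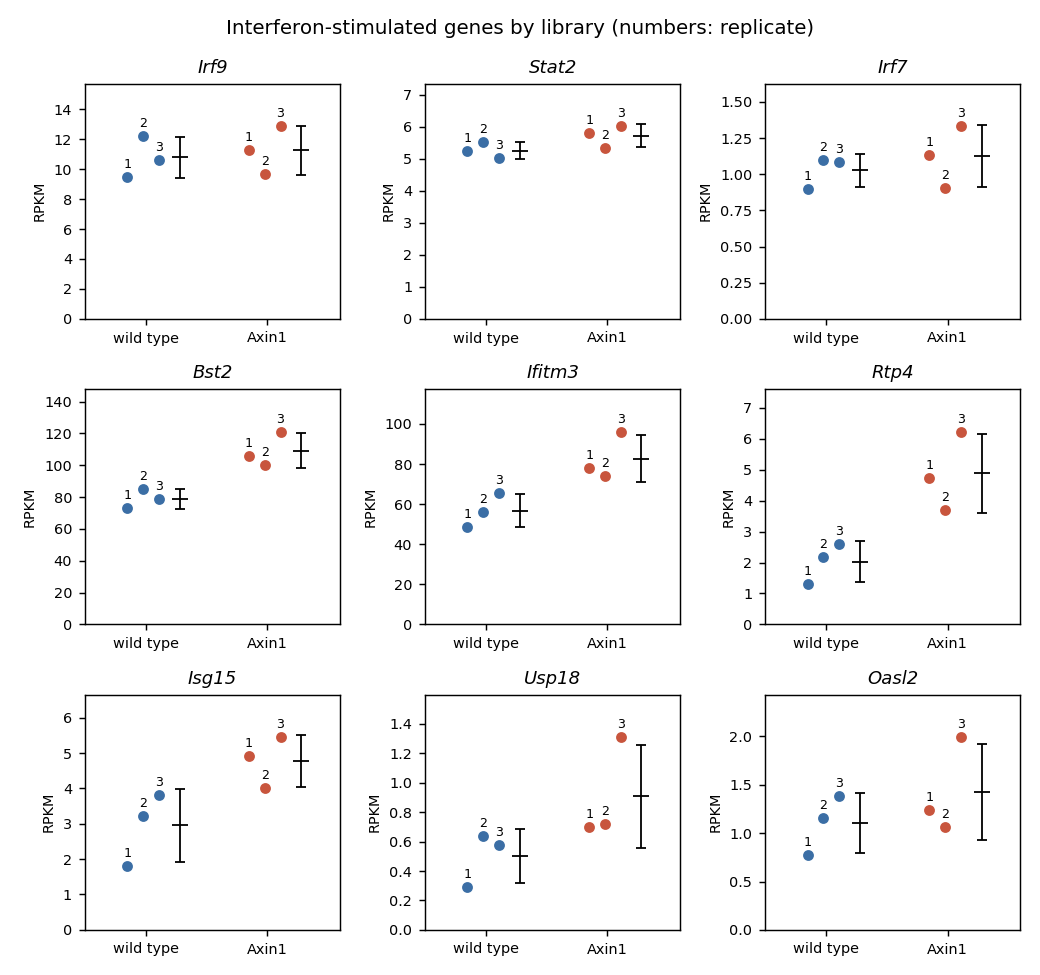
RPKM of the 9 genes (vertical axes, each from 0) in wild-type (blue) and Axin1 (red) libraries, with replicate numbers and, beside the points, the mean ± SD of 3 libraries. The groups do not overlap for Bst2, Ifitm3, Rtp4, Isg15 and Usp18, and Axin1 replicate 3 is the highest library in all 9 panels.

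Among the effectors that act at membranes, Bst2 encodes tetherin, which holds budding viruses on the cell surface. It stood at 72.9, 85.2 and 78.7 RPKM in wild-type replicates 1 to 3 and at 106, 100 and 121 RPKM in Axin1 replicates 1 to 3. Every Axin1 library lay above every wild-type library. The log2 fold change was 0.46 (SE 0.09, limma adjusted p = 0.0101), and the ratio of the group means was 1.38. Bst2 was the most abundant of the 9 and lay above 93.1% of tested genes in wild type.

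Ifitm3 encodes a small membrane protein that blocks the fusion of viruses in endosomes. Its values were 48.7, 55.9 and 65.4 RPKM in wild type and 77.9, 74.0 and 96.2 RPKM with Axin1. The groups did not overlap, with the nearest libraries being wild-type replicate 3 and Axin1 replicate 2. The log2 fold change was 0.54 (SE 0.13, limma adjusted p = 0.0193). Leaving out wild-type replicate 1 ended the call (log2 fold change 0.44, adjusted p = 0.0514), as did leaving out Axin1 replicate 3 (0.43, adjusted p = 0.0565). It was also lost with no level filter (adjusted p = 0.0636) and when every library was corrected for GC content and transcript length (0.39, adjusted p = 0.0883). Among its near relatives, Ifitm2 rose, averaging 69.1 ± 2.97 RPKM in wild type and 122 ± 2.23 RPKM with Axin1 (SD, n = 3), a log2 fold change of 0.81 (limma adjusted p = 0.00015), and Ifitm1, at -0.27 on the log2 scale, did not pass (adjusted p = 0.292). Reads that fit several Ifitm genes could have been split between them, and the sources used here do not say how such reads were counted.

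Rtp4, an interferon-induced chaperone of membrane receptors, showed the largest change of the 8 tested genes. It was at 1.29, 2.17 and 2.59 RPKM in wild type and at 4.73, 3.69 and 6.23 RPKM with Axin1. Every Axin1 library exceeded the highest wild-type library by at least 1.10 RPKM. These levels rest on 126 to 271 reads per library. The log2 fold change was 0.97 (SE 0.19, limma adjusted p = 0.0106), or 0.31 with a pseudocount of 10 and 1.28 with voom on the recovered reads, since the added 1 RPKM understates changes of low genes. The ratio of the group means was 2.42. The call held when each library was left out in turn, with log2 fold changes of 0.78 to 1.12.

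The ubiquitin-like branch comprises Isg15, a ubiquitin-like modifier that is joined to other proteins, and Usp18, the protease that removes it. Isg15 stood at 1.81, 3.23 and 3.82 RPKM in wild type and at 4.90, 4.0 and 5.45 RPKM with Axin1. The groups did not overlap, but wild-type replicate 3 and Axin1 replicate 2 lay 0.177 RPKM apart, and the gene rests on 85 to 166 reads per library. Its log2 fold change was 0.58 (SE 0.18) and did not pass (limma adjusted p = 0.0542). It passed without wild-type replicate 3 (0.74, adjusted p = 0.0304). Usp18 was at 0.291, 0.636 and 0.580 RPKM in wild type and at 0.698, 0.717 and 1.31 RPKM with Axin1. Its groups did not overlap, at 32 to 60 reads per library. With no level filter its log2 fold change was 0.34 (limma adjusted p = 0.211). Ube2l6, the conjugating enzyme of the same branch, rose, averaging 3.24 ± 0.358 RPKM in wild type and 4.40 ± 0.0584 RPKM with Axin1 (SD, n = 3), a log2 fold change of 0.35 (limma adjusted p = 0.0126), a call lost without Axin1 replicate 2 (adjusted p = 0.0518) and with the GC and length correction (adjusted p = 0.0688). Uba7, the activating enzyme, was at -0.16 on the log2 scale and did not pass (adjusted p = 0.158); it was named to complete this branch after its value was seen.

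Oasl2, a member of the oligoadenylate synthetase family that senses double-stranded RNA, was near the level filter. Its values were 0.776, 1.16 and 1.38 RPKM in wild type and 1.23, 1.06 and 1.99 RPKM with Axin1. The groups overlapped, and the gene did not pass (log2 fold change 0.20, SE 0.15, limma adjusted p = 0.361). Without Axin1 replicate 3 the log2 fold change was 0.04.

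None of the 3 transcription factor genes among the 9 passed. Irf9, the DNA-binding part of ISGF3, was at 9.48, 12.2 and 10.6 RPKM in wild type and 11.3, 9.64 and 12.9 RPKM with Axin1, and the groups overlapped (log2 fold change 0.06, SE 0.11, limma adjusted p = 0.747). Stat2, its partner in ISGF3, was at 5.23, 5.53 and 5.02 RPKM in wild type and 5.81, 5.33 and 6.03 RPKM with Axin1. Only Axin1 replicate 2 fell within the wild-type range, and Stat2 did not pass (log2 fold change 0.10, SE 0.07, limma adjusted p = 0.287). Irf7 was the lowest tested gene of the 9 in wild type, at 0.898, 1.10 and 1.08 RPKM, against 1.13, 0.905 and 1.33 RPKM with Axin1 (log2 fold change 0.06, SE 0.09, limma adjusted p = 0.609). The sign turned without Axin1 replicate 3 for Irf7 (-0.01) and Irf9 (-0.04), and without wild-type replicate 1 for Irf9 (-0.02). In GENCODE M21 13.9% of exonic bases of Rtp4 are shared with a noncoding transcript, Gm45338, on the same strand, and at most 4.44% in the other 8 genes with any other gene.

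The authors' deposited table gives its own DESeq test of the same libraries. In the authors' deposited table, 3.91% of 18917 genes were higher with Axin1 at an adjusted p under 0.05. Bst2 (adjusted p = 0.00799) and Rtp4 (adjusted p = 0.0227) passed in the authors' deposited table. Ifitm3 (0.0881), Isg15 (0.194), Usp18 (0.498), Stat2 (0.926) and Oasl2 (0.94) did not pass in the authors' deposited table, nor did Irf7 and Irf9. The ratio of Axin1 to wild-type normalized counts from the authors' deposited table was 2.34 for Rtp4, 1.75 for Usp18, 1.57 for Isg15, 1.41 for Ifitm3 and 1.34 for Bst2. The same ratio was 1.25 for Oasl2, 1.06 for Irf7, 1.05 for Stat2 and 1.03 for Irf9.

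The 9 genes shared an order among libraries. Axin1 replicate 3 was the highest of the 6 libraries for 9 of 9, beside 24.7% of all tested genes, and wild-type replicate 1 was the lowest for 8 of 9, beside 18.3%. Within the Axin1 group, replicate 2 lay below replicate 1 and replicate 1 below replicate 3 for 8 of 9 (all but Usp18), beside 11.7% of tested genes. This order was noticed after the values were seen and was not tested. Axin1 replicate 3 is also the shallowest library, and the part of depth in the order was not tested. Without Axin1 replicate 3, Bst2 (log2 fold change 0.38, limma adjusted p = 0.0306) and Rtp4 (0.81, adjusted p = 0.0299) still passed, while Isg15 was at 0.49 (adjusted p = 0.154).

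**Figure D2:**
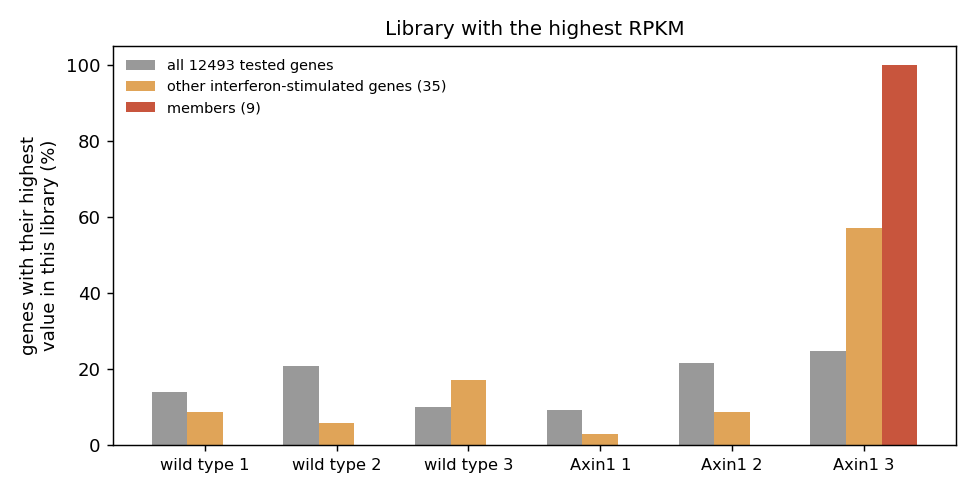
Share of genes (vertical axis, %) whose highest RPKM of 6 libraries falls in the library on the horizontal axis, for all 12493 tested genes (grey), 35 other tested interferon-stimulated genes (orange) and the 9 genes (red). Axin1 replicate 3 is the highest library for 24.7% of all tested genes, 20 of the 35 and 9 of the 9.

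The genes whose pattern was most like that of the 9 were sought over the 6 libraries, by Pearson's r with the mean of the standardized log2 values of the 8 tested genes. The nearest were Tmem48 (r = 0.997), a nuclear pore gene; Nfe2l2 (0.975), a transcription factor of the oxidative stress response; Mrpl20 (0.974), a mitochondrial ribosomal gene; AU019823 (0.973); and Nsun5 (0.971). All points share the libraries' genotype and depth. The r values are a description over 6 libraries.

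Upstream of the 9, no interferon gene had more than 1 read in any library. Of 23 interferon ligand genes sought, 19 were listed, and 16 of these had 0 reads in all 6 libraries. Ifnk, Ifng and Ifnz had 1 read each, in wild-type replicate 1. Interferon beta (Ifnb1) was among those at 0, which allows up to 3 reads per library. No ligand gene was tested.

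Among receptors, kinases, STATs and interferon regulatory factors outside the 9, Irf1 rose and Irf5, Ifnar1 and Jak2 fell. Of 15 tested, 1 rose (6.67%, beside 14.4% of all tested genes) and 3 fell (beside 8.37%), with a median log2 fold change of -0.02. Irf1, a transcription factor induced early by interferons, was at 4.64, 5.78 and 5.25 RPKM in wild type and 8.64, 8.11 and 9.47 RPKM with Axin1. The groups were far apart (log2 fold change 0.65, SE 0.09, limma adjusted p = 0.00229), and the call held when each library was left out and under every other setting. Ifnar1, the receptor chain that binds Tyk2, was at 54.0, 58.3 and 53.5 RPKM in wild type and 41.5, 39.9 and 42.7 RPKM with Axin1. Again the groups did not overlap (log2 fold change -0.41, SE 0.06, limma adjusted p = 0.00437).

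Irf5, which acts downstream of Toll-like receptors, averaged 2.71 ± 0.497 RPKM in wild type and 1.04 ± 0.0659 RPKM with Axin1 (SD, n = 3), a log2 fold change of -0.85 (limma adjusted p = 0.0011). Jak2, a kinase of the interferon gamma receptor, had a log2 fold change of -0.27 (adjusted p = 0.035), a call lost without any of 5 libraries (all but wild-type replicate 1) and with no level filter. Jak1 (0.20, which passed without wild-type replicate 3), Ifnar2 (-0.06), Tyk2 (-0.09), Ifngr1 (-0.10) and Irf3 (-0.01) did not pass, with limma adjusted p of 0.0958 to 0.92.

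**Figure D3:**
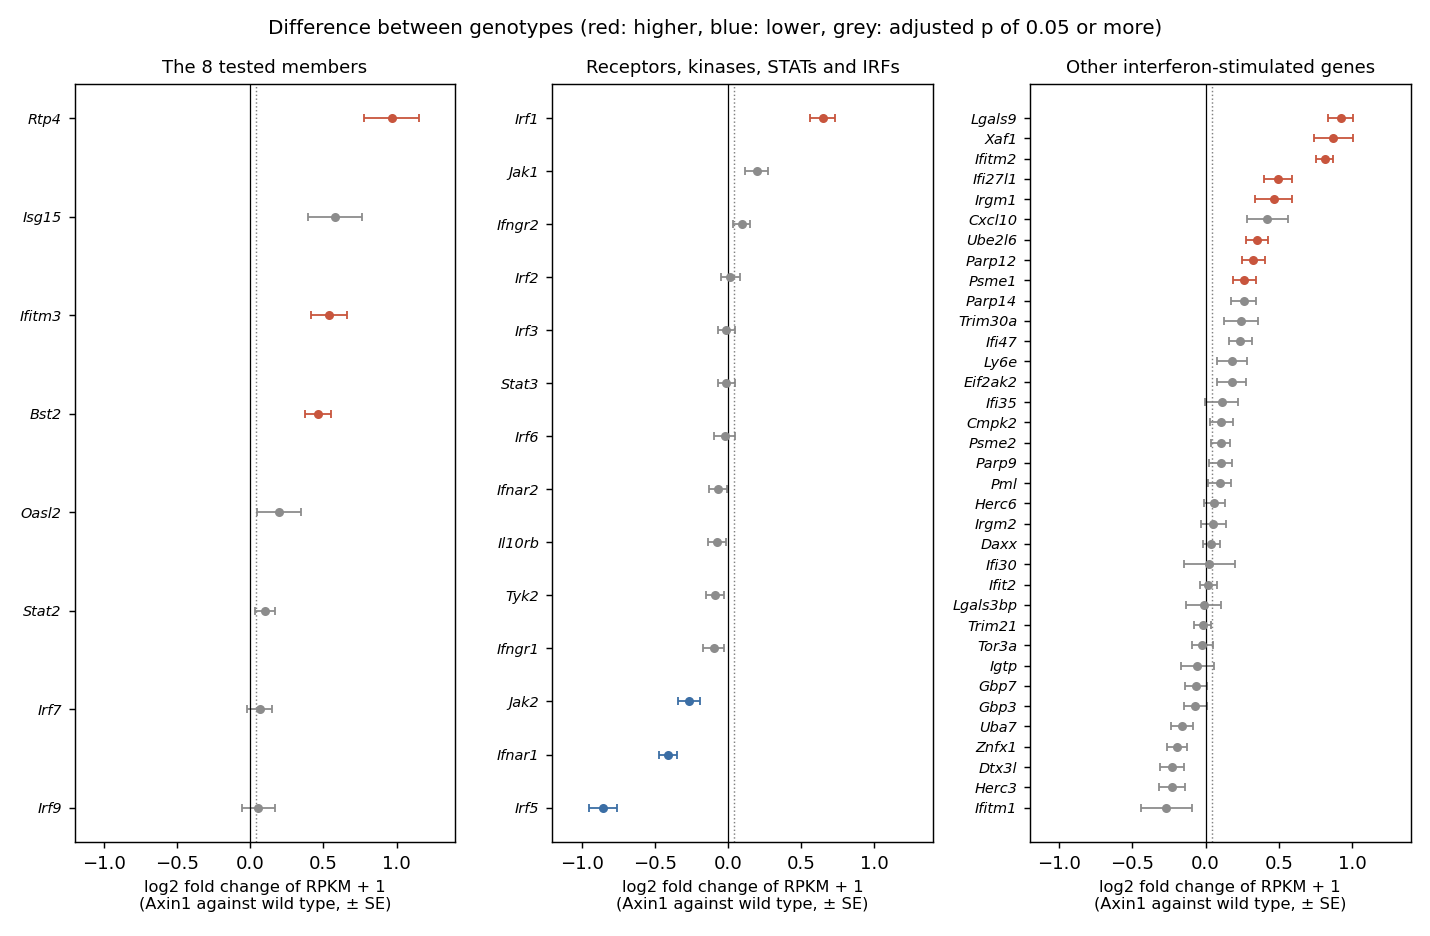
Log2 fold change of RPKM + 1 (horizontal axes, positive where Axin1 overexpression is higher) with its SE for the 8 tested genes, 14 of the 15 tested receptors, kinases, STATs and IRFs, and 35 other tested interferon-stimulated genes. Red and blue mark limma adjusted p under 0.05, grey the rest, and the dotted line is the median of all tested genes, 0.04; the upper end of the first panel holds Rtp4, Isg15, Ifitm3 and Bst2.

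Among brakes on the pathway Socs3 and Cish rose and Irf2bp2 fell. Of 11 tested, 2 rose (18.2%, beside 14.4% of all tested genes) and 1 fell (9.09%, beside 8.37%), shares near those of all genes, with a median log2 fold change of 0.08. Socs3, which blocks cytokine receptor kinases, had a log2 fold change of 0.25 (limma adjusted p = 0.0235), and Cish, of the same family, also had 0.25 (adjusted p = 0.0312). Irf2bp2, a corepressor of IRF2, had -0.21 (adjusted p = 0.0423). Leaving out any library ended the call of Irf2bp2, and leaving out any but Axin1 replicate 1 that of Cish. Socs3 no longer passed when wild-type replicate 3, Axin1 replicate 2 or Axin1 replicate 3 was left out. With a pseudocount of 10 neither Socs3 nor Cish passed. With the GC and length correction Irf2bp2 was at -0.10 and did not pass (adjusted p = 0.248).

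Sensors of foreign nucleic acid and their adaptors went both ways, with 2 of 16 tested higher (beside 14.4% of all tested genes) and 3 lower (18.8%, beside 8.37%) and a median of 0.01. The adaptor gene Myd88 was higher by a log2 of 0.28 (limma adjusted p = 0.0166) and the RNase H2 subunit gene Rnaseh2b by 0.28 (adjusted p = 0.0395). Trim25, the ubiquitin ligase of the RIG-I pathway, had a log2 fold change of -0.28 (adjusted p = 0.0159), the DNA sensor gene Aim2 -0.30 (adjusted p = 0.0294) and Ddx58, which encodes RIG-I, -0.24 (adjusted p = 0.0402). Each of these 5 calls was lost without Axin1 replicate 2, and all but that of Trim25 also without Axin1 replicate 3. Calls were lost widely in these settings: over all tested genes they fell from 2846 to 1054 and to 1402, respectively. Those of Rnaseh2b and Ddx58 were lost without Axin1 replicate 1 too. Among the wild-type libraries, leaving out any ended the Aim2 call, leaving out replicate 1 or 3 that of Ddx58, and replicate 2 or 3 that of Rnaseh2b. Rnaseh2b was at 0.12 with the GC and length correction (adjusted p = 0.332), and its call was also lost with the median of ratios (0.0664), a shared upper quartile (0.0611), no level filter (0.0733) and a pseudocount of 0.1 (0.0516). The calls of Aim2 and Ddx58 were lost with no level filter and with a pseudocount of 10.

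Other interferon-stimulated genes were higher more often than lower. Of 35 tested, 8 rose (22.9%, beside 14.4% of all tested genes) and 0 fell by limma (7 and 2 with the median of ratios, 7 and 1 with a shared upper quartile), with a median log2 fold change of 0.10 beside 0.04; the separation of the groups upwards, 10 of 35 or 28.6%, was close to the 28.0% of all tested genes. Lgals9, which encodes the lectin galectin-9, averaged 17.5 ± 1.21 RPKM in wild type and 34.0 ± 3.42 RPKM with Axin1 (SD, n = 3), a log2 fold change of 0.92 (limma adjusted p = 0.000385). Xaf1, an interferon-induced promoter of apoptosis, stood at 3.18, 1.99 and 2.22 RPKM in wild type and 5.31, 4.56 and 6.05 RPKM with Axin1 (log2 fold change 0.87, limma adjusted p = 0.00407). Ifi27l1 had a log2 fold change of 0.50 (adjusted p = 0.00966). The 8 calls fell to 5 without wild-type replicate 1 or without any of the Axin1 libraries. Over all tested genes, those called higher fell from 1800 to 1186 without wild-type replicate 1. Without an Axin1 library they fell to between 589 and 1492. At an unadjusted limma p under 0.05, 11 were higher and 3 lower. The share of all tested genes at that unadjusted threshold was not counted, and it cannot be below the adjusted one. These unadjusted counts are therefore not read as a result either.

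The strongly inducible genes in the set fixed for naming were near or below the level filter. Ifi44 was at 0.222, 0.413 and 0.497 RPKM in wild type and 0.944, 0.678 and 1.45 RPKM with Axin1, from 40 to 100 reads. Rsad2, which encodes viperin, was at 0.183, 0.248 and 0.382 RPKM against 0.406, 0.528 and 0.588 RPKM, from 43 to 83 reads. Neither group overlapped with the other in these genes, nor in Oas1a (5 to 11 reads) and Ifit1 (6 to 15 reads), where 20.7% of all genes with reads showed such a separation upwards. With no level filter their limma adjusted p was 0.0759 for Ifi44, 0.0858 for Rsad2, 0.063 for Oas1a and 0.129 for Ifit1. Ifit3 overlapped (adjusted p = 0.962), with its highest value in wild-type replicate 1, and Mx1 had at most 3 reads in a library. Ifit2 was above the filter and did not pass (log2 fold change 0.02, limma adjusted p = 0.839). Mx2 averaged 0.139 RPKM in wild type and 0.108 RPKM with Axin1, and its groups overlapped. Ifit2 and Mx2 were named as relatives of Ifit3 and Mx1 after their values were seen. Cxcl10, a chemokine gene, had a wild-type mean below 1 RPKM and so passed the filter only through the Axin1 libraries. Its test is therefore not read as support. Cxcl10 was at 0.689, 1.31 and 0.839 RPKM against 1.25, 1.5 and 2.07 RPKM and did not pass (log2 fold change 0.42, limma adjusted p = 0.0614). It passed without wild-type replicate 2 (0.55, adjusted p = 0.026).

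**Figure D4:**
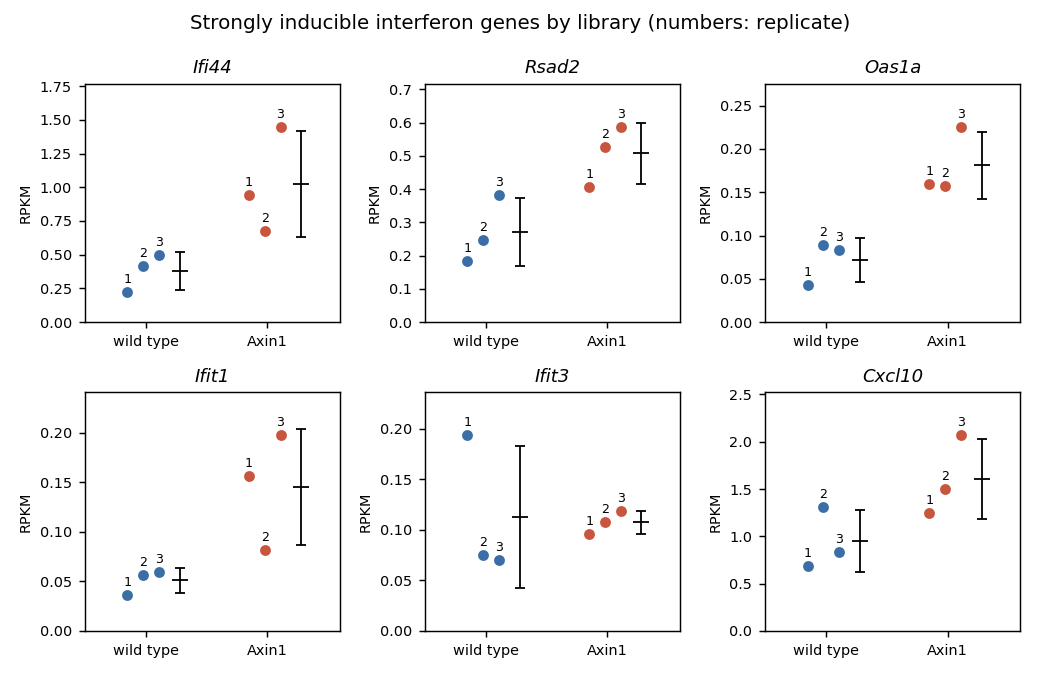
RPKM (vertical axes, each from 0) of 6 strongly inducible interferon genes in wild-type (blue) and Axin1 (red) libraries, with replicate numbers and the mean ± SD of 3 libraries. Ifi44, Rsad2, Oas1a and Ifit1 do not overlap between the groups, while Ifit3 and Cxcl10 do.

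Among genes of class I antigen presentation, also induced by interferons, few passed in either direction. Of 11 tested, 1 rose (9.09%, beside 14.4% of all tested genes) and 1 fell (9.09%, beside 8.37%). Every Axin1 library lay above every wild-type library for 2 of the 11 (18.2%, beside 28.0% of all tested genes). A higher mean with Axin1 was seen for 9 of the 11, and the share of all tested genes with a higher mean was not counted. The median log2 fold change was 0.20, beside 0.04 over all genes tested. B2m, the light chain of class I molecules, was higher by a log2 of 0.26 (limma adjusted p = 0.0399), a call lost with the median of ratios (adjusted p = 0.0639). Its log2 fold change was 0.01 with the GC and length correction, and the call was also lost without wild-type replicate 1, wild-type replicate 3, Axin1 replicate 2 or Axin1 replicate 3. Tapbp, which loads peptides, had a log2 fold change of -0.36 (limma adjusted p = 0.00876). The heavy chain genes H2-D1 and H2-K1 varied widely within groups, H2-K1 from 18.5 to 39.0 RPKM in wild type and 26.0 to 51.4 RPKM with Axin1. Both were highest in Axin1 replicate 3 and lowest in wild-type replicate 3. They were named after their values were seen.

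Marker sums of several cell types other than endothelium differed between the genotypes as well. Microglia and macrophages respond strongly to interferon; all 14 of their markers had reads, their summed level was 96.3 to 107 RPKM in wild type and 92.9 to 121 RPKM with Axin1, and 1 of 11 tested was higher (Aif1) and 1 lower (Laptm5). The median log2 fold change of these 11 was 0.27, beside 0.33 for the 8 tested interferon genes and 0.04 for all genes tested. Of the 14, 11 were highest in Axin1 replicate 1, beside 9.25% of all tested genes. The 9 interferon genes were highest in Axin1 replicate 3, beside 24.7% of all tested genes. What these peaks say about the source of either set was not tested. Over all tested genes 14.4% were called higher and 8.37% lower, beside 9.09% each way for the microglia and macrophage markers. Neural progenitor and neuron markers summed to 2050 to 2324 RPKM in wild type and 2641 to 2720 RPKM with Axin1. Of the 13, 8 were higher (61.5%). Erythroid markers summed to 120 to 166 RPKM and 414 to 775 RPKM, with 5 of 5 tested higher, 2 of their 10 genes being listed at 0. Pericyte and smooth muscle markers summed to 60.7 to 72.8 RPKM and 46.2 to 57.8 RPKM, with 5 of 9 lower (55.6%). Meningeal fibroblast markers summed to 227 to 353 RPKM and 243 to 247 RPKM, with 3 of 11 lower, and endothelial markers to 3894 to 4064 RPKM and 3420 to 3652 RPKM, with 1 of 12 higher and 3 lower. The 9 interferon genes summed to 141 to 169 RPKM in wild type and 200 to 253 RPKM with Axin1. The part of other cell types in their change was not tested.

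**Figure D5:**
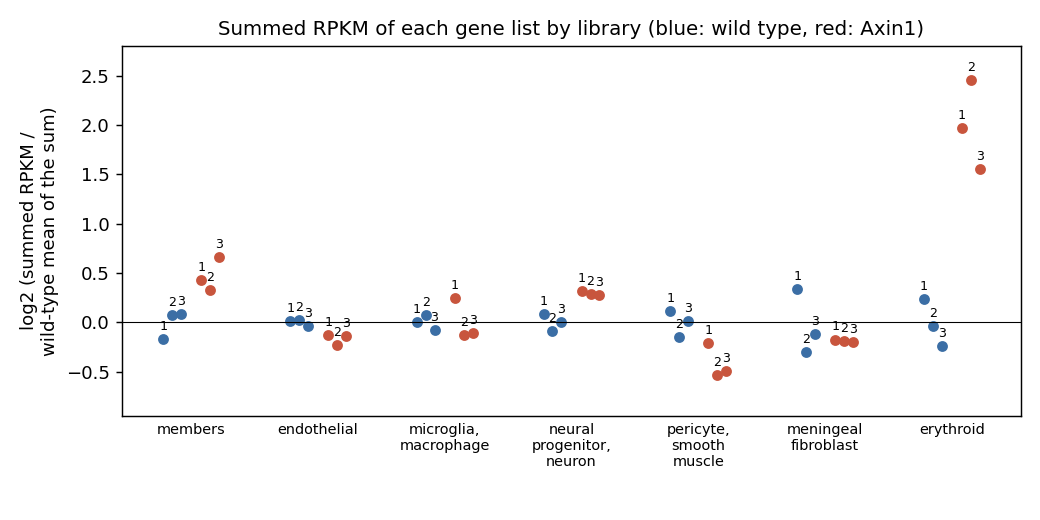
Summed RPKM of the 9 genes (members) and of the markers of 6 cell types in each library, as log2 of the ratio to the wild-type mean of the same sum (vertical axis), with replicate numbers. The highest library is Axin1 replicate 1 for the microglia and macrophage sum, Axin1 replicate 2 for the erythroid sum and Axin1 replicate 3 for the sum of the 9 genes.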

How the data were processed

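TRAP RNA of 6 libraries was sequenced as polyadenylated RNA with the TruSeq v2 kit, per the labels' protocols. Bowtie, DESeq and the build mm9 are named in the submitters' processing notes without versions, and no source used here names the read counter or its filters. The authors deposited RPKM per gene and library, a unit settled from the values, since no header names it: implied transcript lengths were 0.986 of the reference lengths (median). The authors also deposited each group's mean signal in normalized counts, a fold (wild type over Axin1) and p-values, raw and adjusted, per the file headers. Whole reads were recovered from RPKM and the group means: 100.0% of values of genes with 1 transcript were whole within 0.05 reads, and 83.6% of all values.

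limma 3.58.1 in R 4.3.3 was fitted to log2(RPKM + 1) with genotype as sole term, on 12493 genes averaging 1 RPKM or more. Fold changes are on that scale, where changes of low genes come out too small. P-values are two-sided and adjusted by Benjamini-Hochberg over all genes tested. The labels call the libraries biological replicates, and p-values rest on the spread between them. An exact permutation test of 3 against 3 cannot go below 0.1 and was not used. The 9 genes and all gene lists were chosen with earlier results of these data known. Named genes were the 9, up to 5 called genes per list and direction, and fixed sets of transducers and strongly inducible genes; others are marked, and a gene that the rule takes is not reported here. The limma step was tested on simulated data. Alternatives were other pseudocounts (0.1 and 10), filters and scalings, voom, the replicate number as a block, a loess correction (span 0.5) for GC content and transcript length, and leaving out each library. Replicates were distinct beyond sampling noise (chi-square per degree of freedom of 7.59 to 45.5). Tables and plots were made with Python 3.11.15 (pandas 2.3.3, matplotlib 3.10.9, numpy 2.4.6).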

Additional observations from a re-analysis of the deposited data

How the results depend on the processing

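As reported, 3 of the 8 tested genes were called higher, and between 2 and 4 were called across the alternatives. The number tested differed with the filter. Under a filter of 5 RPKM only Stat2, Irf9, Ifitm3 and Bst2 were tested, and 2 were called. With no filter Usp18 was tested as well, and 2 were called. Bst2 and Rtp4 were called under each alternative that tested them (Rtp4 lies below a filter of 5 RPKM), and the calls of Ifitm3 and Isg15 changed as given above. Of 124 values of single genes under alternatives, 115 kept their direction and their side of the threshold, 4 lost and 2 gained a call, and 3 reversed: Irf7 without Axin1 replicate 3 (-0.0051) and Irf9 without wild-type replicate 1 (-0.025) or Axin1 replicate 3 (-0.0378). With a library left out, Irf7 ranged from -0.0051 to 0.1408 and Irf9 from -0.0378 to 0.1537; the cause was not tested. Among the other named genes, Tyk2 turned to 0.0469 with the GC and length correction, and Irf3, from -0.0335 to 0.0225 with a library left out, turned without wild-type replicate 1 and without Axin1 replicate 2 (0.009). Over all genes 2846 were called, 1822 with the GC and length correction, and 1054 to 2318 when a library was left out, lowest without Axin1 replicate 2 and 1402 without Axin1 replicate 3. The split of 1800 higher and 1046 lower became 1298 and 1338 with the median of ratios. The other interferon-stimulated genes called higher numbered 5 to 8 when a library was left out; alternatives for these and for the other named genes were chosen after seeing the data. Deviations of same-numbered libraries correlated by 0.08, 0.13 and 0.06, and 6 of 6 libraries correlated best with their own number. Deviations sum to 0 within each group, so these 6 matches are not independent. They are a weak hint from the data and not from the design. With the replicate number as a block, 2675 genes (12.7% of those tested called higher) and 4 of the 8 were called, the fourth being Isg15 (0.58, limma adjusted p = 0.0327). Among the other named genes Cxcl10 gained a call, and Irf2bp2 and Rnaseh2b lost theirs. The fewest reads in a library were 32 for Usp18, 50 for Irf7, 85 for Isg15, 123 for Oasl2 and 126 for Rtp4, which limits the precision of these genes.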
